A study of Mus musculus with 2 samples.

Results

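The SoxB genes encode the SRY-related high-mobility-group box transcription factors of neural progenitors, and their H3K27me3 was examined in chondrocytes, a cell type outside the neural lineage. The 5 genes Sox1, Sox2, Sox3, Sox14 and Sox21 were looked up by symbol among the 4985 gene symbols that the authors' annotation joined to an H3K27me3 peak within 5 kb of the gene. All 5 symbols were in that table. The data were 1 library of chromatin precipitated with an antibody against H3K27me3 and 1 library of input DNA, which is the same kind of chromatin without precipitation. Both came from primary chondrocytes of wild-type newborn CD1 mice, an outbred strain, which had been released from rib cartilage with collagenase and cultured overnight in DMEM with fetal bovine serum, with no other treatment. Age is given only as newborn, and sex and the number of pooled animals are not given. The libraries were grouped by their titles, and their antibody tags say the opposite, with H3K27me3 given for the input and input given for the precipitated DNA. With 1 library on each side there was no replicate and no test of any difference. Peaks were called on a whole cell population, so a mark in fewer cells and a weaker mark in each cell cannot be told apart.

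H3K27me3 is deposited on the tail of histone H3 by Polycomb repressive complex 2 (PRC2) and marks developmental genes that are kept silent, often over broad stretches of chromatin. The SoxB1 factors Sox1, Sox2 and Sox3 act mainly as transcriptional activators that keep neural progenitors undifferentiated, and Sox2 is also part of the pluripotency circuit of embryonic stem cells. The SoxB2 factors Sox14 and Sox21 act mainly as repressors, bind similar DNA motifs and are linked to the onset of neuronal differentiation. Cartilage depends on other members of the family, Sox9, Sox5 and Sox6.

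The ChIP library held 17237574 filtered tags and the input library 17004082, and the authors' list held 19359 peaks. The pileup of a peak is its mean number of overlapping ChIP fragments per base, and the lowest in the list was 9.86 with a median of 11.04. Fold enrichment is (pileup + 1) over (input background + 1), with a median of 3.16. The q-value is a mean over the peak and describes that peak in this pair of libraries only. The label chondrocyte could not be checked here, since the list holds no expression. Of 10 chondrocyte marker genes, 0 had a peak within 5 kb (95% Wilson interval up to 27.8%), and this interval holds the 20.7% of all protein-coding genes with a peak. Their nearest peaks lay 36.8 to 2126.5 kb away. Among markers of other cell types, 3 of 4 skeletal muscle genes (30.1 to 95.4%) and 2 of 3 blood genes (20.8 to 93.9%) had a peak, beside the same 20.7%. Myod1 had 8.571 kb and Tal1 21.863 kb, while Myf5 and Myf6 were joined to the same peak of 0.37 kb. Ptprc had 0.947 kb at a mean q-value of 0.0890, and Myog and Spi1 had none.

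The DNA just upstream of the SoxB genes is given first, since the genes differed in whether their starts lay under the mark. Of the 5 genes, 4 (Sox1, Sox2, Sox14 and Sox21) matched the RefSeq promoter table for GRCm38.p6. The 250 bases before the start are shown 5′ to 3′ on the strand of the gene for 3 of them, with every CG dinucleotide in capitals. Sox2 is shown because its start fell in a break between peaks, so that 0 of these 250 bases lay under a peak. Sox14 and Sox21 are shown because all 250 did. The positions are chr3:34649745-34649994 on the plus strand for Sox2, chr9:99876171-99876420 on the minus strand for Sox14 and chr14:118237031-118237280 on the minus strand for Sox21.
Sox2: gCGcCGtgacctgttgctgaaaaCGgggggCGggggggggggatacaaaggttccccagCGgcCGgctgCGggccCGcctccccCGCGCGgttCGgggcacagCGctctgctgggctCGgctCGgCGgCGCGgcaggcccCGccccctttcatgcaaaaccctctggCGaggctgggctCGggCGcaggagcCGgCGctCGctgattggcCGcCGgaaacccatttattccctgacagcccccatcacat
Sox14: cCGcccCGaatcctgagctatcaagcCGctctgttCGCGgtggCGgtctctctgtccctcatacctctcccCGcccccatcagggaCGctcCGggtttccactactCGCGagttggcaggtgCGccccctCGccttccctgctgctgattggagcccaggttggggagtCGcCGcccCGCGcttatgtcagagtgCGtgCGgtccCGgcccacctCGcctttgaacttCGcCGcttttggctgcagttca
Sox21: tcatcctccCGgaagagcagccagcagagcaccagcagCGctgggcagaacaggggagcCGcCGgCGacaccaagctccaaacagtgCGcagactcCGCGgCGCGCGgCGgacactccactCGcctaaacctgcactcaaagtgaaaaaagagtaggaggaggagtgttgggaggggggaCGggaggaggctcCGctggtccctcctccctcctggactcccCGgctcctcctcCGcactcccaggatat

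The window of Sox1 (chr8:12395269-12395518, plus strand) is not shown, because only its first 27 bases lie before the start in the authors' annotation. All 250 of its bases lay under a peak. All 4 windows held more CG than the median window. Sox1 had 29 CG dinucleotides, Sox2 27, Sox14 23 and Sox21 17, while the median of 21263 windows of the same length at protein-coding genes was 10 (quartiles 3 and 19). These counts stood at percentiles 91.2, 89.0, 82.7 and 68.6 of all windows, respectively, and the GC content was 71.2, 72.0, 65.6 and 65.2%, against a median of 55.6%. Windows of genes whose start lay under a peak had the same median of 10 CG dinucleotides (quartiles 5 and 17). The letters CCAAT, searched on both strands, occurred once each in Sox1, Sox2 and Sox14 and in 35.4% of all windows. GGGCGG, the core of the GC box, occurred 3 times in Sox1 and Sox14 and 2 times in Sox2, and in 42.6% of all windows. TATAAA and ACAATG were in none of the 4 windows and in 11.6 and 9.35% of all windows. ACAAAG, a common core of Sox binding sites, occurred once, in Sox2, and in 14.9% of all windows. None of these motifs contains another on either strand, and a match describes the sequence only.

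All 5 SoxB genes had a peak within 5 kb (5 of 5, 95% Wilson interval 56.6 to 100%), beside 20.7% of all protein-coding genes (4535 of 21887). The gene start itself lay under a peak in 3 of 5, Sox1, Sox14 and Sox21, beside 4.45% of protein-coding genes. A covered start was found in 21.5% of the marked protein-coding genes. A peak overlapped the gene body in 4 of 5, all but Sox3, beside 14.2%, and the same 4 had a peak of at least 10 kb, beside 12.7% of marked genes. All 5 kept a peak when its q-value had to average 0.05 or less, beside 16.4% of protein-coding genes. Sox1, Sox2 and Sox21 (3 of 5) also had one at 0.01, beside 5.9% of all and 28.5% of marked genes, and the same 3 had one of at least 3.5-fold enrichment, beside 5.35% of all. The autosomal genes and the X-linked Sox3 were far apart in amount. Sox1, Sox2, Sox14 and Sox21 carried 22.989 to 41.635 kb of peaks each, and Sox3 carried 0.896 kb. The median over marked protein-coding genes was 3.75 kb (quartiles 1.473 and 8.951 kb).

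The 5 genes were joined to 7 peaks with a summed length of 139.038 kb. Of these peaks, 6 were at least 10 kb long, beside 3.46% of all peaks in the list, and 5 had q no higher than 0.01 on average, beside 11%. The 6 long peaks ranged from 11.035 to 35.883 kb, and all ranked within the 552 longest. Their pileup ranged from 12.16 to 13.68 fragments, percentiles 83.0 to 97.5 among all peaks (length, 97.1 to 99.8), and their fold enrichment from 3.45 to 3.71, percentiles 87.4 to 97.8. The counting error of the pileup, from an exact Poisson interval on the estimated number of fragments, was wide enough that all 7 intervals held the values from 12.5 to 12.8 fragments. Differences between pairs of these peaks were not tested, so their order by pileup is a description only. These intervals cover counting error only, and the peaks had been selected for exceeding a threshold.

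**Figure D1:**
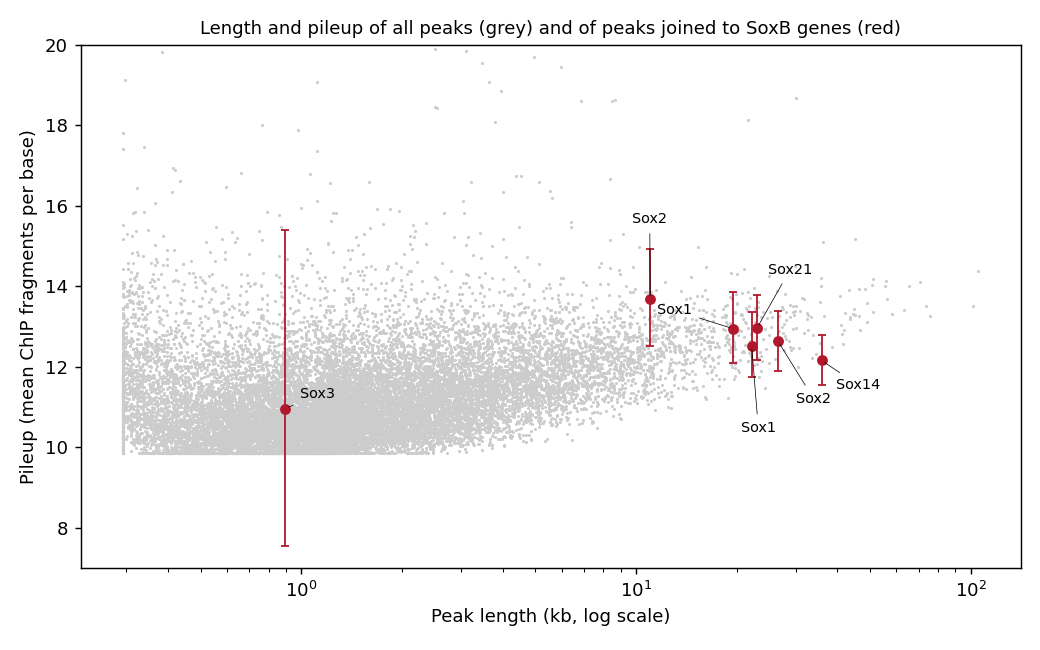
Peak length in kb (log axis) against pileup in mean ChIP fragments per base for the peaks of the list (grey) and for the 7 peaks joined to SoxB genes (red, with 95% Poisson intervals for counting error). The 39 peaks above 20 fragments lie outside the plotted range. Sox3 sits among the short peaks, and the other 6 sit at 11.035 to 35.883 kb with overlapping intervals.

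Sox1, among the earliest markers of the neural plate, carried the largest amount, 41.635 kb in 2 peaks, rank 102 of the 4535 marked protein-coding genes. The gene (ENSMUSG00000096014) lies at chr8:12395296-12400126 on the plus strand, in mm10 coordinates (GRCm38) as annotated in the peak table. The first peak, chr8:12376615-12396083, was 19.469 kb long and ran from 18.7 kb upstream to 0.787 kb past the start. Its pileup was 12.95 fragments (12.1 to 13.8) over an input background of 2.76, which gave an enrichment of 3.71-fold at q = 0.00405. The second peak, chr8:12397790-12419955, was 22.166 kb long, at a pileup of 12.53 (11.7 to 13.4) and an enrichment of 3.51-fold (q = 0.00836). A break of 1706 bp inside the gene, which held 35.3% of its bases, separated both peaks. The start lay under the first peak, and 64.7% of the gene lay under one or the other.

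Sox2, which maintains both pluripotent cells and neural progenitors, carried 37.635 kb in 2 peaks (rank 116). The gene (ENSMUSG00000074637) lies at chr3:34650006-34652461 on the plus strand. The upstream peak, chr3:34638490-34649524, was 11.035 kb long and had the highest pileup of the 7, at 13.68 fragments (12.5 to 14.9), but also the highest input background, 3.14, so that its fold enrichment was 3.54 and its q-value 0.00440. The downstream peak, chr3:34650796-34677395, was 26.6 kb long and ran to 27.4 kb past the start, at a pileup of 12.63 (11.9 to 13.4) and an enrichment of 3.56-fold (q = 0.00695). The break between both, chr3:34649525-34650795, was 1271 bp long and held the start in the authors' annotation and in the RefSeq gene table alike. It began 481 bp before the start and took in the first 790 bases of the gene, or 32.2%. The other 67.8% lay under the downstream peak. The smallest gap between any 2 peaks of the list was 1177 bp, and 4.19% of the 19339 gaps were no longer than the break at Sox2. The break at Sox1 was no shorter than 17.4% of them.

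Sox14, a repressor that marks interneurons of the spinal cord and thalamus, lay whole under the longest of the 7 peaks. The gene (ENSMUSG00000053747) lies at chr9:99874117-99876170 on the minus strand. The peak, chr9:99848326-99884208, was 35.883 kb long, rank 37 of 19359, and ran from 8.038 kb upstream to 27.8 kb past the start. Its pileup of 12.16 fragments (11.5 to 12.8) and fold enrichment of 3.45 were the lowest of the 6 long peaks, and its mean q-value was 0.0111.

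Sox21, a repressor that opposes the SoxB1 factors in the neural tube, also lay whole under 1 peak. The gene (ENSMUSG00000061517) lies at chr14:118233233-118237030 on the minus strand. The peak, chr14:118220471-118243459, was 22.989 kb long and ran from 6.429 kb upstream to 16.6 kb past the start. Its pileup was 12.96 fragments (12.2 to 13.8), its fold enrichment 3.53 and its q-value 0.00658. By summed length Sox21 ranked 309 among marked protein-coding genes, the lowest of the autosomal members.

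Sox3, the X-linked SoxB1 gene with roles in neural progenitors and in the pituitary, was joined to 1 peak of 0.896 kb that did not reach the gene. The gene (ENSMUSG00000045179) lies at chrX:60891371-60893430 on the minus strand, and the peak, chrX:60885807-60886702, lay 4669 bp beyond its 3′ end. The pileup was 10.96 fragments, from an estimated 33.4 fragments (7.54 to 15.4), over the genome-wide input level of 2.67, where 28.3% of all peaks stood. Its fold enrichment was 3.26 and its q-value 0.0321. The peak was shorter than the median of all peaks, 1.27 kb, and the gene ranked 3924 of 4535 by summed length. Upstream, 2 peaks lay beyond the reach of the annotation, a peak of 2.185 kb that began 6302 bp from the gene (pileup 10.14, q-value 0.0753) and a peak of 379 bp that began 9693 bp from it (pileup 11.75, q-value 0.0139). No peak lay over the gene or closer than these to either end, which at this depth says only that no stretch there passed the caller's threshold.

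The X chromosome held few peaks as a whole. Of 966 protein-coding genes on X, 57 had a peak within 5 kb (5.9%, 4.58 to 7.57%), beside 21.7% on autosomes, and 5 had the start under a peak (0.518%), beside 4.69%. The mean q-value was at most 0.05 in 44.2% of the 138 peaks on X, the Sox3 peak among them. The peaks on X had a median length of 1.04 kb, a median pileup of 10.5 fragments and a median fold enrichment of 3.11, and the largest summed length at a marked X gene was 12.533 kb. The Sox3 peak was shorter than the first of these medians and higher than the other 2, and Sox3 ranked 37 of 57 in summed length on X. The part of chromosome-wide depth or input in the value of Sox3 was not tested.

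**Figure D2:**
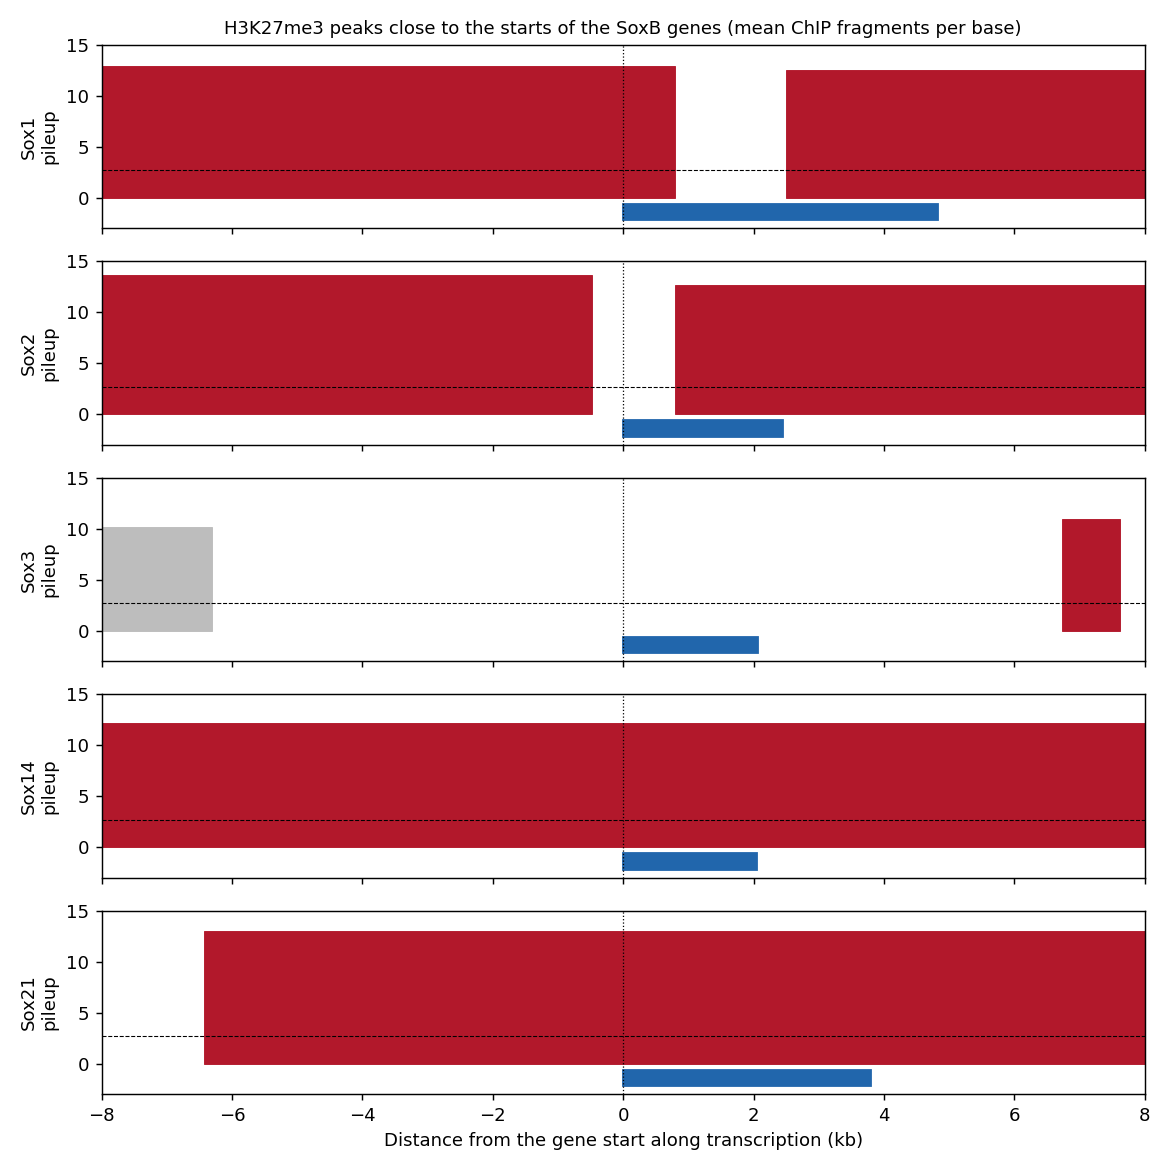
Peaks within 8 kb of the start of each SoxB gene, drawn as blocks with the pileup as height (mean ChIP fragments per base), against distance from the start in kb along transcription. Red blocks are joined to the gene by the annotation, the grey block is not, blue bars are the genes and the dashed line is the genome-wide input level of 2.67. The start is covered at Sox1, Sox14 and Sox21, falls in a 1271 bp break at Sox2 and has no peak near it at Sox3.

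At the 4 autosomal genes, the stretch of marked chromatin was longer than the peaks joined to them by name. When peaks across gaps of at most 5 kb were joined, the list formed 10770 domains with a median of 2.06 kb. The domain at Sox1 was 192.951 kb long (chr8:12359536-12552486), the 5th longest of all, and held 20 peaks that covered 78.3% of it. This length rests on the gap and on the peaks kept, as it was 244.474 kb with gaps of at most 10 kb, 277.906 kb with 20 kb and 85.425 kb with peaks of at least 3.5-fold enrichment only. The annotation had joined only 2 of the 20 peaks to Sox1. The other 18, with 109.381 kb, had pileups from 10.51 to 13.0 fragments and fold enrichments from 2.88 to 3.67, and the q-value of 7 of them averaged 0.01 or less. The domain reached 35.8 kb upstream of the gene start and 152 kb beyond the gene end. The marked flank of Sox1 thus reached farther on the downstream side.

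At this gap the domains of the other 3 autosomal genes were 46.909 to 55.229 kb long. Sox14 had 55.229 kb in 6 peaks (rank 105), Sox21 had 50.599 kb in 7 peaks (rank 135) and Sox2 had 46.909 kb in 4 peaks (rank 153). Their order depended on the gap, since with 10 kb Sox21 (81.797 kb) was longest, followed by Sox14 (73.689 kb) and Sox2 (46.909 kb). It also depended on the peaks kept, since with peaks of at least 3.5-fold enrichment only, Sox2 had 38.906 kb, Sox21 27.402 kb and Sox14 none. With gaps of 5 kb, they reached upstream of the start by 20.2 kb at Sox14, 23.8 kb at Sox21 and 19.5 kb at Sox2. Beyond the gene end they reached 32.985, 23.016 and 24.934 kb, respectively. The peaks that the annotation did not join to these 3 genes were short, 0.301 to 4.329 kb, and added 8.454 kb at Sox14, 14.499 kb at Sox21 and 2.583 kb at Sox2. A 2.784 kb peak upstream of Sox21 (pileup 13.38, fold enrichment 3.90) and a 0.301 kb peak downstream of Sox14 (12.66 and 3.56) had higher values than the peak over the gene, and these differences were not tested. The domain at Sox3 was its single peak of 0.896 kb, and with gaps of at most 20 kb it was 17.695 kb.

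**Figure D3:**
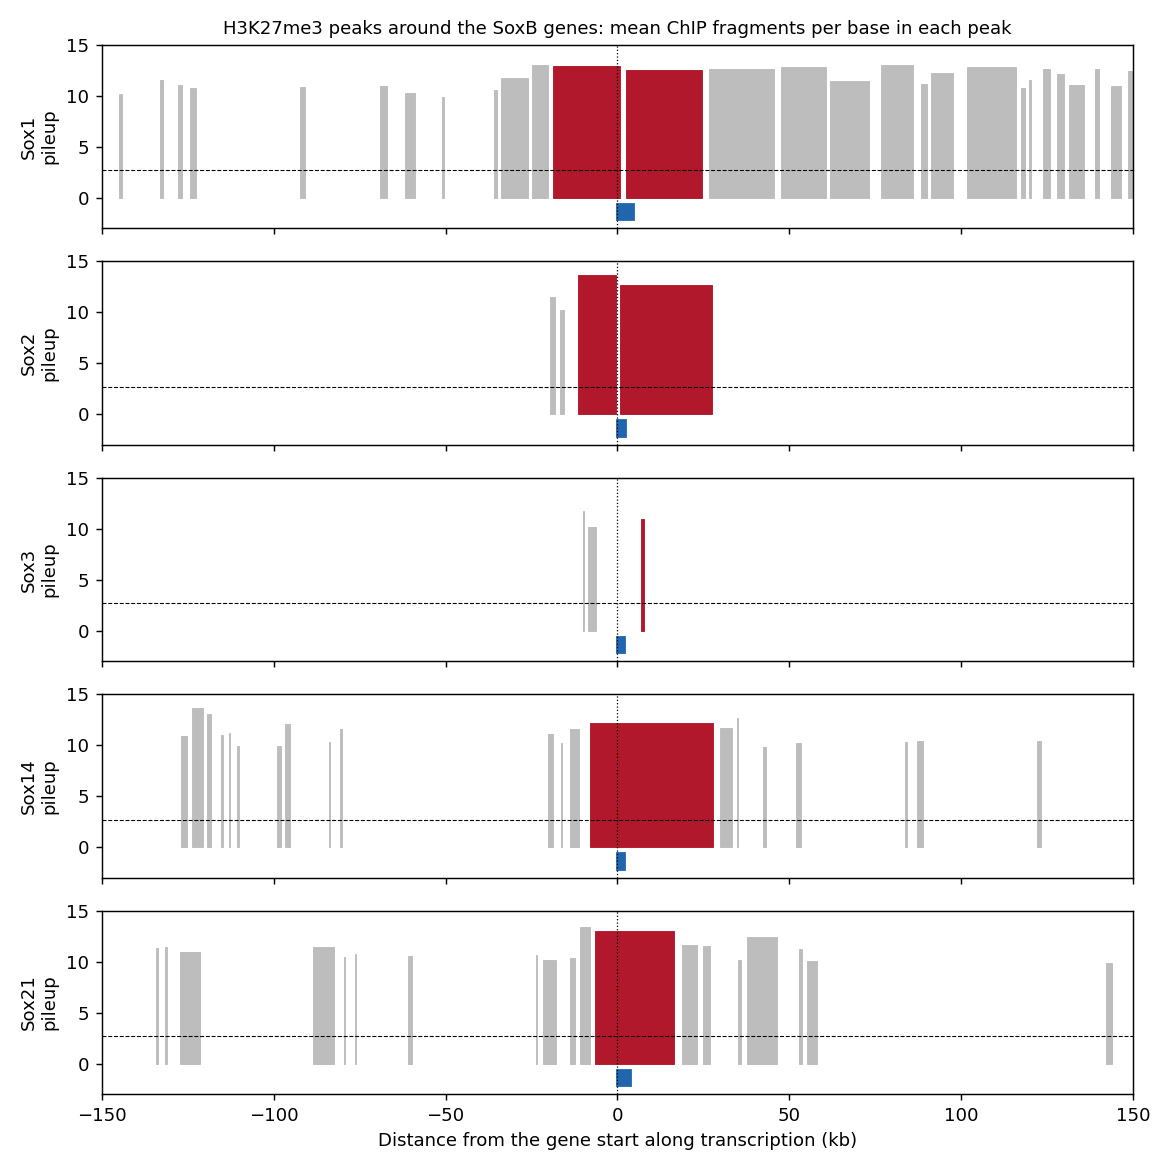
Peaks within 150 kb of the start of each SoxB gene, drawn as blocks with the pileup as height (mean ChIP fragments per base), against distance from the start in kb along transcription. Red blocks are joined to the gene by the annotation, grey blocks are not, blue bars are the genes and the dashed line is the genome-wide input level of 2.67. Blocks crowd the downstream side of Sox1, end within 28 kb of the start at Sox2 and are nearly absent at Sox3.

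Cover was also measured in windows of fixed size, which needs no joining of peaks. Within 10 kb on each side of the start, 90.2 to 93.6% of bases lay under peaks at Sox1, Sox2, Sox14 and Sox21, and 16.9% at Sox3. Within 50 kb on each side the values were 75.7% at Sox1, 47.0% at Sox21, 45.1% at Sox14, 40.2% at Sox2 and 3.46% at Sox3. The mean over 17492 protein-coding genes with a RefSeq promoter was 3.396% and the median 0%, and the 974 genes with a covered start had a mean of 21.4% and a median of 14.97%. The 4 autosomal genes stood at percentiles 99.1 to 99.9 of all these genes. Sox3 stood at percentile 77.1 of all and 97.1 of the 817 on X. Cover was larger on the downstream side at the 4 autosomal genes, with 44.194 kb of 50 kb downstream and 31.461 kb upstream at Sox1, 26.6 and 13.618 kb at Sox2, 32.45 and 12.666 kb at Sox14 and 32.285 and 14.688 kb at Sox21. More cover downstream was found at 53.2% of the 1010 gene starts under a peak. Sox3 had 0.896 kb downstream and 2.564 kb upstream.

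Neighbours of the SoxB genes were read within 100 kb of each start only, and were not counted for other genes. The Sox1 domain ran farther, to 157.19 kb downstream of the start, and genes in that outer part were not looked up. Within 100 kb of the 5 starts, the RefSeq gene table had 2 other protein-coding genes, Gpr180 and Gm9376, both near Sox21 and both with 0 bases under a peak. The long non-coding RNA gene Sox1ot, which overlaps Sox1, had 92.9% of its 50.962 kb under peaks, and the non-coding genes Gm33326 and Gm33532 farther downstream lay wholly under peaks of the Sox1 domain. Sox2ot, the non-coding gene whose span contains Sox2, had 40.218 of 117.613 kb under peaks (34.2%), which is all the covered length within 100 kb of Sox2. Mir1897, which lies at the outer edge of the upstream peak, had 53 of 79 bases under it. Around Sox21 the non-coding genes Gm32045 and Gm31981 were wholly covered, 4933431J24Rik was covered to 60.0% and Gm4675, which overlaps Sox21, to 62.0%, while Gm32093 (33.9%) and Mir6241 (12.6%) were covered in part. The pseudogenes Gm4674 near Sox21 and Gm518 near Sox14 were covered to 84.5 and 24.1%. At Sox3, 0 of 4 neighbours had a base under a peak, including the non-coding gene Gm38438, 0.223 kb from it. The mark over overlapping genes cannot be assigned to one of them. The other neighbours, all non-coding, had 0 bases under a peak, namely Gm33175 and Gm51562 near Sox1, Gm42205, Gm34941 and Gm3143 near Sox2, Gm14661, Gm14660 and Rpl7l1-ps1 near Sox3, Gm23594 and Gm8641 near Sox14 and Gm23669 near Sox21. No other symbol shared a peak with a SoxB gene in the annotation, and 5 records without a symbol did, of which 3 matched Sox1ot, Mir1897 and Gm4675 by position.

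Among the other Sox genes, 5 of 15 had a peak within 5 kb (33.3%, 15.2 to 58.3%), beside 20.7% of protein-coding genes and 5 of 5 SoxB genes. These were the 3 SoxF genes, which act in endothelial cells and endoderm, and Sox13 and Sox30. Sox17 had 20.318 kb in 1 peak (fold enrichment 3.39), Sox7 had 16.12 kb in 3 peaks (3.498) and Sox18 had 6.707 kb in 2 peaks (3.17), each with its start covered. Sox30, a gene of male germ cells, had 5.88 kb, and Sox13, of the SoxD group, had 1.604 kb, both without cover of the start. The autosomal SoxB genes carried more than all of these, since the smallest of them, Sox21, had 22.989 kb. No peak lay within 5 kb of the SoxC genes Sox4, Sox11 and Sox12, the SoxE genes Sox8, Sox9 and Sox10, Sox15 or Sry. The same held for Sox5 and Sox6, which with Sox9 drive cartilage formation. The list held no peak on the Y chromosome, where Sry lies, so the lack of a peak says nothing of Sry itself. Of the other Sox genes on autosomes, 5 of 14 had a peak (35.7%, 16.3 to 61.2%), beside 21.7% of autosomal protein-coding genes. The nearest peak lay 1315 kb from Sox9, 568 kb from Sox5 and 628 kb from Sox6. Sox12 had the closest one among unmarked Sox genes, at 15.9 kb.

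**Figure D4:**
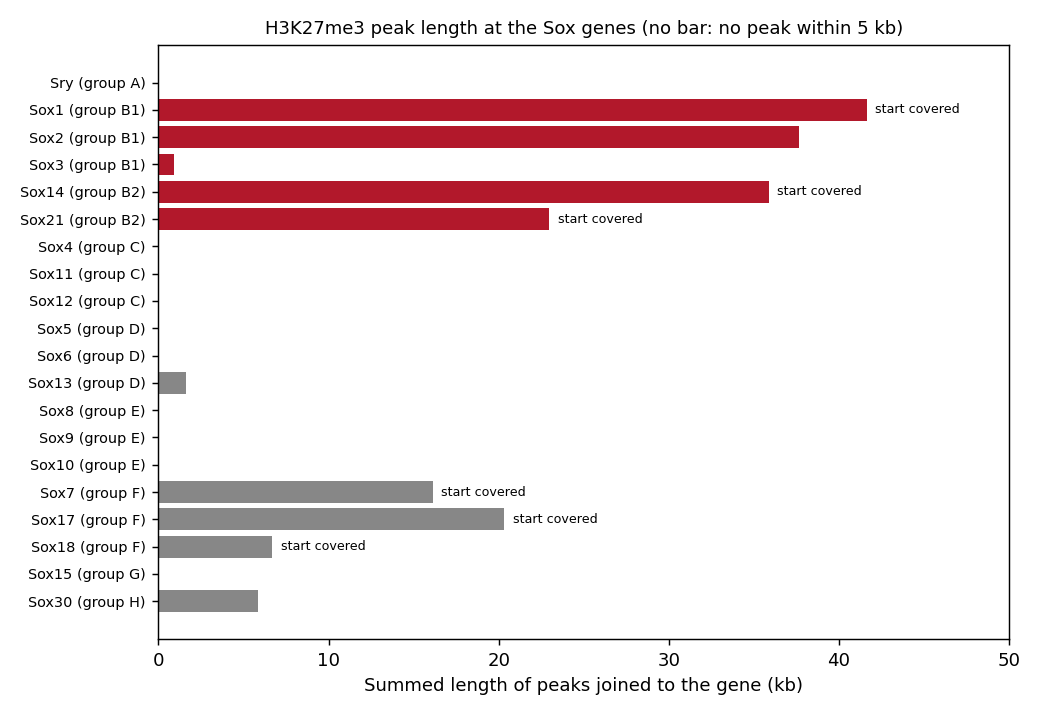
Summed length in kb of the peaks joined to each of the 20 Sox genes, ordered by group, with SoxB genes in red and others in grey. A bar of no length means that no peak lay within 5 kb, and the words beside a bar mark genes whose start lay under a peak. The 4 autosomal SoxB genes, at 22.989 to 41.635 kb, exceed every other Sox gene, and Sox3 has 0.896 kb.

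Genes that work with SoxB factors were read from 4 lists, each beside the share of 20.7% over all protein-coding genes. Of 8 partner factors, 5 had a peak (62.5%, 30.6 to 86.3%). Pax6, which binds DNA together with Sox2 in the lens and neural tube, had 41.179 kb in 1 peak with its start covered, close to the amount at Sox1. The POU factors Pou3f1 and Pou3f2 had 17.113 and 14.573 kb with their starts uncovered, the pluripotency factor Pou5f1 had 0.403 kb and the chromatin remodeller Chd7 had 2.204 kb. Pou3f3, the X-linked Pou3f4 and Ctnnb1 had none. Of 12 genes that mark neural progenitors or act in them, 5 had a peak (41.7%, 19.3 to 68.0%), an interval that holds the 20.7% of all protein-coding genes. The Notch effectors Hes5 and Hes3 had 13.773 and 7.197 kb with their starts covered, N-cadherin (Cdh2) had 13.618 kb, and Prom1 and Slc1a3 had 3.542 and 0.837 kb. Nes, Fabp7, Msi1, Msi2, Hes1, Vim and Gfap had none.

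The proneural and oligodendrocyte basic helix-loop-helix genes, which drive neuronal and glial fates downstream of the progenitor state, had peaks at 11 of 12 (91.7%, 64.6 to 98.5%), with the start covered at 7. For a covered start, the share was 4.45% of all protein-coding genes and 21.5% of the marked ones. Olig2, at 43.557 kb, had more than any SoxB gene, and Neurog2 (26.704 kb) and Neurog1 (25.003 kb) were within the range of the autosomal SoxB genes. Atoh1, Neurod1, Neurod2, Neurod6, Neurog3, Nhlh1 and Olig1 were among the others marked, and Neurod4 was not. Of 10 pluripotency genes, 8 had a peak (80.0%, 49.0 to 94.3%), led by Esrrb with 23.734 kb, Sall4 with 13.025 kb and Utf1 with 7.807 kb. Lin28a, Fgf4, Tdgf1, Nanog and Pou5f1 were marked with less, and Klf4 and Zfp42 had no peak. Nanog and Pou5f1 had 0.63 and 0.403 kb, whereas their partner Sox2 had 37.635 kb. Over the 4 lists, 28 of 41 genes were marked (68.3%), beside 20.7%.

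**Figure D5:**
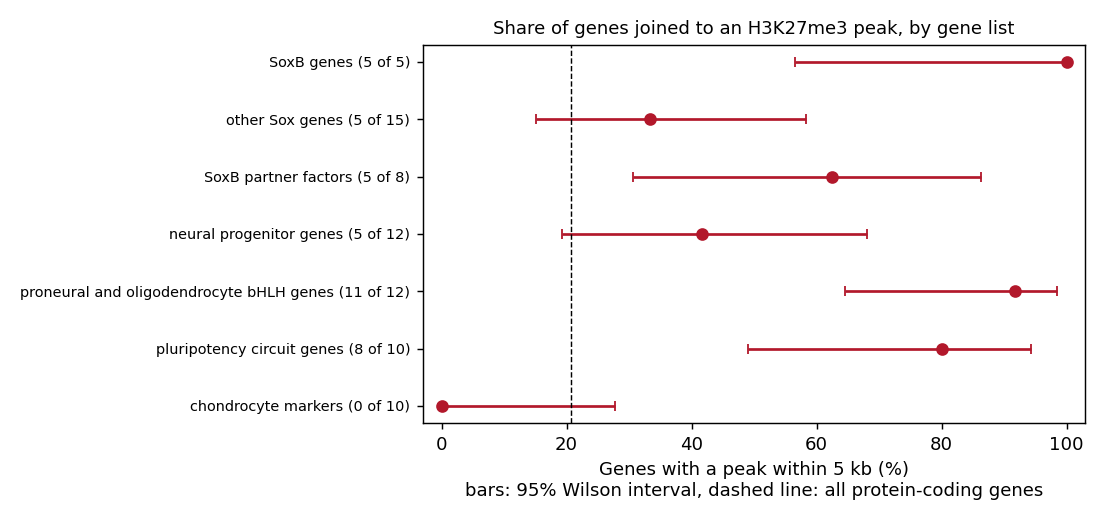
Share in percent of the genes of each list with a peak within 5 kb, as points with 95% Wilson intervals for counting error, and the share of all protein-coding genes (20.7%) as a dashed line. The SoxB genes (5 of 5) and the basic helix-loop-helix genes (11 of 12) lie highest, and the chondrocyte markers (0 of 10) lie lowest.

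The genes most like each SoxB gene were found by distance in 4 standardised measures (summed peak length, pileup, fold enrichment and cover of 50 kb on each side) over 4535 marked protein-coding genes, as a description of this list. Sox1 was nearest to En2 (0.360), Pdx1 (0.369) and BC107364 (0.439), against a median distance of 5.76. The genes nearest to Sox2 included Prdm12 (0.304) and Nkx2-6 (0.315). Sox14 was nearest to Prox1 (0.240), Pou4f3 (0.240) and En1 (0.318). Sox21 was nearest to Onecut3 (0.208), Nkx2-9 (0.271) and Ihh (0.284). Ihh encodes the signal Indian hedgehog of growth plate cartilage. The nearest to Sox3 were Arl1 (0.141), Lypd5 (0.165) and Atf7ip2 (0.2007), each with about 1 kb of peaks. Sox2, Sox14 and Sox21 lay 0.640 to 0.831 apart from each other and 2.15 to 2.56 from Sox1, and Sox3 lay 4.45 to 6.43 from the other 4. As neighbours of one another, Sox2, Sox14 and Sox21 ranked only 25 to 73, and their median distances to all marked genes were 3.65 to 3.84.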

How the data were processed

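Chromatin of cultured newborn mouse rib chondrocytes was cut enzymatically, and 1 H3K27me3 ChIP library (17574613 tags) and 1 input library (17369199 tags) were sequenced. The submitters' processing notes name CASAVA 1.8.4, Bowtie2, MACS2 and the build mm10. Per the file headers, broad peaks were called with MACS 2.1.0.20140616 on the ChIP against the input library, with a fragment length of 294 bp, a q-value cutoff of 0.05 and the larger library scaled to the smaller. The list still held peaks whose mean q-value was above this cutoff, such as a peak upstream of Sox21 at 0.0895. Pileup is a coverage signal, and fold enrichment a ratio, as deposited per peak. The q-value of a peak was deposited on the −log10 scale as a mean over the peak, as was the p-value, which was not used. The authors also joined peaks to Ensembl genes within 5 kb, by a tool not given in the sources used here.

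The deposited lengths and values of all 19359 peaks were identical in both tables. Symbols were split at semicolons and matched to the RefSeq GRCm38.p6 gene table (4927 of 4987 entries, 98.8%), which gave the 21887 protein-coding genes of the background. Of the symbols, 96.9% had a start or end within 1 kb in both sources. Input background was computed as (pileup + 1)/fold − 1. Pileup intervals are exact Poisson intervals on pileup × length/294, and shares have 95% Wilson intervals, both for counting error only. Gene values are means over peaks weighted by length. The promoter table gives strand, checked on 1487 overlapping windows on opposite strands, which were identical after reverse complement. Intervals and cover were tested on simulated data.

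The members and all gene lists were chosen with earlier results of these data known. Named were the SoxB genes, marked Sox and list genes, all genes within 100 kb of a member's start, and the 3 genes nearest to each member in the 4 measures, and some genes that this rule names are not reported here. Motifs were chosen after the sequences were read. Columns of other series: 0. Alternatives were stricter peak filters, other rules for a marked gene, other gaps, other windows and the highest peak per gene. Python 3.11.15, pandas 2.3.3, numpy 2.4.6, scipy 1.17.1 and matplotlib 3.10.9 were used.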

Additional observations from a re-analysis of the deposited data

How the results depend on the processing

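No paired analysis was possible because there was only 1 library on each side, and without replicates no library could be left out. Keeping only peaks whose q-value averaged 0.01 or less, or only peaks of at least 3.5-fold enrichment, left 3 SoxB genes with a peak (Sox1, Sox2 and Sox21), 1 other Sox gene and 13 genes of the 4 lists, and the summed length at SoxB genes was 102.259 kb. The share of protein-coding genes with a peak was then 5.90 or 5.35%. Counting only genes whose start was covered gave 3 SoxB genes, 3 other Sox genes, 15 list genes and 4.45% of protein-coding genes. That share was 16.4% at a q-value of at most 0.05, 17.0% with peaks of at least 1 kb, 14.2% over gene bodies and 22.0% at positions of the gene table. Peaks of at least 1 kb summed to 138.142 kb at SoxB genes, since Sox3 lost its peak. The number of SoxB genes with a covered start was 2 or 3 under the alternatives that required cover, and 4 had a peak within 1 kb of the start. These counts stand without a share over all protein-coding genes, which is given only for a covered start in the full list (4.45%).

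The joined domains of the 5 genes summed to 346.584 kb. Gaps of at most 1 kb joined no peaks, since the smallest gap was 1177 bp, and left the 7 separate peaks with their summed length of 139.038 kb. The sum was 447.765 kb with gaps of at most 10 kb and 497.996 kb with 20 kb, and it was 323.623 kb at a q-value of at most 0.05, 151.733 kb at 0.01 and at a fold enrichment of 3.5, and 301.022 kb with peaks of at least 1 kb. Thus the domain lengths depend on the gap that is bridged, and at Sox1 they ranged from 192.951 kb with 5 kb to 277.906 kb with 20 kb, while with 1 kb its peaks stayed apart (41.635 kb in sum). The median cover was 91.5% within 10 kb and 26.2% within 100 kb on each side. Taking the highest peak of each gene gave a median pileup of 12.95 instead of 12.73. The order of Sox2, Sox14 and Sox21 by domain length changed with the gap and with the filter, as at a q-value of at most 0.01 they had 38.906, 0 and 27.402 kb. Depth limits what can be said of Sox3, whose peak rested on an estimated 33.4 fragments.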

Other observations

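The position of the Sox2 start between 2 long peaks and the larger cover downstream of the autosomal SoxB starts led to 2 counts over the whole list, both chosen after the data were seen. Gaps of at most 2 kb between peaks numbered 4446 and spanned 6.72 Mb, which was 12.5% of the summed length of these gaps and all peaks. Of the gene starts that lay either in such a gap or under a peak, 361 lay in a gap and 1010 under a peak. The share in a gap was thus 26.3% (95% Wilson interval 24.1 to 28.7%), whatever the length of the peaks beside it, whereas those beside the Sox2 start were long. The 1010 starts exceed the 974 genes with a covered start in the annotation. Of the 1010 gene starts under a peak, 537 had more cover in the 50 kb downstream than in the 50 kb upstream (53.2%, 50.1 to 56.2%). The intervals cover counting error only, gene starts close to each other share peaks, and no test was made. A record of 0.085 kb without a symbol lay within the break between both Sox1 peaks and matched no gene of the gene table.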
